A study of Mus musculus with 5 samples.

Results

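The comparison described here set the low runners (L-RUN) against mice kept with a locked disk (LD), in RNA of the dentate gyrus (DG) of the hippocampus. A gene entered when its mean over the 5 libraries of the series was at least 5 on the log2 scale, which 13550 of 23420 gene symbols reached. For each gene the LD value was subtracted from the L-RUN value, and a difference of 0.3 or more in size, a 1.23-fold change upwards or 0.812-fold downwards, is called higher or lower. This took in 108 genes that were higher in L-RUN, 0.797% of the genes compared, and 316 that were lower, 2.33%.

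All 5 groups were wild-type male mice of the outbred strain CD1, 4 months old by the labels, housed for 4 weeks before the DG was dissected whole. LD mice lived singly with a running disk that could not turn, and RUN mice lived singly with a disk that could. L-RUN and H-RUN were the 4 RUN mice with the shortest and the 4 with the longest running distances. CE (complex environment) mice lived in groups with a locked disk and tunnels. The LD, CE and RUN libraries each held the pooled RNA of 8 mice, and the L-RUN and H-RUN libraries the pooled RNA of 4, so the RUN library held the same animals as L-RUN and H-RUN together. With 1 library for each group there was no test of the difference between L-RUN and LD, and the spread between mice is not in the data. The values are regularized log values on the log2 scale, which pull each gene towards its mean over the libraries, so that fold changes are understated most in genes with few reads. Sequencing depth is not known from these values.

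The one measure of error was technical. The RUN library was set against the value computed for L-RUN and H-RUN RNA mixed 1 to 1, and the residual, scaled to a difference between 2 libraries, gave a standard deviation (SD) of 0.0365 over all genes compared and 0.0222 to 0.0473 over the 10 classes of expression level. It does not cover differences between mice, between pools of 4 and 8 mice, or between housing cages.

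As background, granule cells are the principal neurons of the DG, and they receive glutamatergic input from the entorhinal cortex and send mossy fibers to area CA3. Voluntary running is known for raising adult neurogenesis, growth factor levels and synaptic plasticity in this region. The DG lies directly beneath a fold of the leptomeninges, the inner meninges, whose fibroblasts make collagens, retinoic acid and prostaglandin D synthase and carry transporters for organic anions. In bulk tissue, a change in the number of cells of a type and a change in RNA per cell cannot be told apart.

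The 108 higher genes were led by genes of leptomeningeal fibroblasts. Ptgds, Igf2 and Fmod were at least 1 unit higher in L-RUN than in LD, and Cwc22 was at least 1 unit lower. At 0.5 or more in size there were 21 higher and 62 lower genes. The median difference over all genes compared was -0.0018 with an SD of 0.132 across genes, and the middle 98% of genes lay between -0.41 and 0.28. Just inside the cut-off were Slc29a1 (0.3001), Nrgn (0.3005) and Nid1 (0.3008) upwards and Slc24a4 (-0.3001), Dgkz (-0.3007) and Slc1a3 (-0.3009) downwards. Just outside it were Agmat (0.2991), Col6a2 (0.2990) and Pla2g2f (0.2979), and Creg2 (-0.2993), Zyg11b (-0.2987) and Brwd3 (-0.2975).

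**Figure D1:**
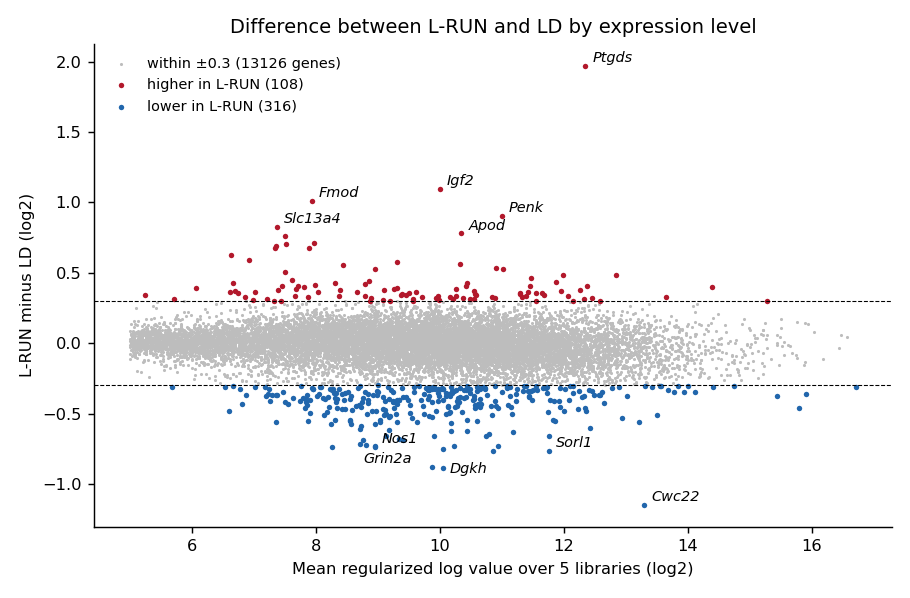
Difference between L-RUN and LD (log2) of each of the 13550 genes against its mean regularized log value over the 5 libraries (log2), 1 point per gene, with dashed lines at the cut-off of 0.3. The 108 higher genes (red) reach 1.97 in Ptgds, and the 316 lower genes (blue) reach -1.15 in Cwc22 and lie at all levels of expression.

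The upstream sequences of Ptgds, Fmod and Slc13a4 are shown because these fibroblast genes were among the 5 with the largest positive differences and moved together across the libraries. Each run is the 250 bases before the transcription start that RefSeq gives, on the gene's own strand of GRCm38.p6, the mm10 build to which the authors mapped their reads. The regions are chr2:25469750-25469999 (minus strand) for Ptgds, chr1:134037004-134037253 (plus strand) for Fmod and chr6:35308127-35308376 (minus strand) for Slc13a4. The GENCODE gene spans given with the values take in transcripts with other starts, so the Ptgds run lies inside that gene's span and the last 5 bases of the Slc13a4 run do too. Capitals mark matches, on either strand, to 5 short motifs, the TATA box, the GC box, the CCAAT box, the AP-1 site and the cAMP response element, whose letters are given with their shares.
Ptgds: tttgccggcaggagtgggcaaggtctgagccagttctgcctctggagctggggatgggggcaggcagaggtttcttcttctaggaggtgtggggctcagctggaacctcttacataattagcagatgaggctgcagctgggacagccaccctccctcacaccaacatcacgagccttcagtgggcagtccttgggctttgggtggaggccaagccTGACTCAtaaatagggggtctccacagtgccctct
Fmod: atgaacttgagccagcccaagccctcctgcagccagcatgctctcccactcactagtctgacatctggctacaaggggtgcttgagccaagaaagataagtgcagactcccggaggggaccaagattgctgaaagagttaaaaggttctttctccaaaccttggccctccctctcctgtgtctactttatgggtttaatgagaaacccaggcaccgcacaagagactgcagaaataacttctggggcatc
Slc13a4: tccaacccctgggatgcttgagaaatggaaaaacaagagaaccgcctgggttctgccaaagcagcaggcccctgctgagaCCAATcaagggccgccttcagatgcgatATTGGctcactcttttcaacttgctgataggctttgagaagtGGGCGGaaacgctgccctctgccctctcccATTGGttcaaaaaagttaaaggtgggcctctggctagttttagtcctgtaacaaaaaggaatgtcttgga
Ptgds held 1 AP-1 match, Slc13a4 held 1 GC box and 3 CCAAT matches, which do not overlap, and Fmod held none of the 5 motifs. Of the genes compared, 10743 had an upstream sequence in the RefSeq table, among them 84 of the higher and 233 of the lower genes. The AP-1 site, searched as TGACTCA, was in 6 of the 84 upstream sequences of higher genes (7.14%), in 5 of 233 of lower genes (2.15%) and in 2.72% of all. GC boxes, searched as GGGCGG, were in 51.2% of higher, 64.4% of lower and 59.7% of all sequences. CCAAT boxes, searched by those letters, were in 34.5%, 29.6% and 36.2% of the same sets. For the TATA box, searched as TATAAA, the shares were 8.33%, 7.30% and 6.20%. For the cAMP response element, searched as TGACGTCA, they were 2.38%, 4.29% and 2.74%. These shares describe letters in a fixed window and were not tested.

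Ptgds, prostaglandin D2 synthase, which the leptomeninges secrete into the cerebrospinal fluid, had the largest difference of all genes. In the GENCODE vM21 annotation of mm10, from which all gene positions here are taken, it lies at chr2:25466709-25470046 on the minus strand. Its value was 11.64 in LD and 13.61 in L-RUN, beside 11.94, 12.98 and 11.54 for CE, RUN and H-RUN. L-RUN was thus 1.97 above LD, a 3.92-fold difference, with RUN between L-RUN and H-RUN and with H-RUN at the level of LD or slightly below it. Igf2, an insulin-like growth factor made by meninges and choroid plexus, lies at chr7:142650766-142666816 on the minus strand. It measured 9.65 in LD and 10.75 in L-RUN, beside 9.75, 10.23 and 9.60 for CE, RUN and H-RUN, a difference of 1.096 (2.14-fold). Fmod, fibromodulin, which binds collagen fibrils, lies at chr1:134037254-134048277 on the plus strand and measured 7.58 in LD and 8.597 in L-RUN, beside 7.69, 8.18 and 7.60 for CE, RUN and H-RUN (difference 1.01). In both genes L-RUN was highest and RUN next, as for Ptgds, and the LD, CE and H-RUN libraries lay within 0.15 of each other.

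Transporters and enzymes of the barrier fibroblasts also had their highest value in L-RUN and the next in RUN. Slc13a4, a sulfate transporter, was at 7.11 in LD and 7.93 in L-RUN, beside 7.17, 7.54 and 7.09 for CE, RUN and H-RUN, 0.83 above LD. Slc6a13, a transporter of GABA and taurine, was 0.69 above LD. The organic anion transporters Slc22a6 and Slc22a8 were 0.63 and 0.36 higher, and Slc47a1, a transporter of organic cations, 0.35 higher. Aldh1a2, which makes retinoic acid, stood at 7.24 in LD but 8.001 in L-RUN, a difference of 0.76, and was at 7.26 in H-RUN. Gjb2, a connexin of gap junctions between leptomeningeal cells, was 0.68 higher, and Apod, a carrier of small lipids, 0.78 higher. None of these 8 genes differed from LD by more than 0.10 in H-RUN.

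Matrix genes made up the rest of the group. Aebp1, which assists collagen assembly, and Mgp, an inhibitor of calcification, were both 0.71 higher. Among fibrillar collagens, Col1a2 was at 7.57 in LD and 8.24 in L-RUN, beside 8.02, 7.99 and 7.62 for CE, RUN and H-RUN (difference 0.67), Col3a1 was 0.59 higher and Col1a1 0.40 higher. In CE these collagen genes stood above LD by 0.45 for Col1a2, 0.39 for Col1a1 and 0.20 for Col3a1, while of the transporters Slc6a13 was furthest above it, by 0.07. Pcolce, which enhances the processing of procollagen, was 0.43 higher, Bgn, a small proteoglycan, 0.38, and Igfbp2, which binds insulin-like growth factors, 0.39. Members of the marker list that were not called include Dcn (0.29), Crabp2 (0.25), Nupr1 (0.20), Zic1 (0.17), Tbx18 (0.15), Lum (0.10), Osr1 (0.08) and Ogn (0.05).

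In all, 28 of the 30 leptomeningeal fibroblast markers had a mean of at least 5, and 19 of these were higher, 0 were lower and 28 had a positive difference, with a median of 0.41. The median of the same markers was -0.0053 in H-RUN, 0.086 in CE and 0.23 in RUN, each against the same LD library. Not every marker was flat in H-RUN, where Dcn and Ogn were each more than 0.5 below LD. Summed on the linear scale, the 30 markers came to 10001 in LD and 22743 in L-RUN, beside 11464, 16307 and 9359 for CE, RUN and H-RUN, and no marker was at 0 in any library. Without Ptgds the sums were 6809 in LD and 10236 in L-RUN, beside 7531, 8240 and 6386 for CE, RUN and H-RUN, a ratio of 1.503 of L-RUN to LD in place of 2.27. Of the 15 genes with the largest positive differences, 13 were on this marker list. The exceptions were Penk and Baiap3, a protein of dense-core vesicle release that was 0.57 higher in L-RUN and 0.44 higher in CE. The part of meningeal tissue in these differences was not tested. The list was put together with results of these data known and is given as a description.

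Over the wider collagen family, 6 of 32 measured genes were higher, against 0.797% of all genes compared, and 0 lower, with a median of 0.12. Besides the fibrillar collagens they were Col6a3 (0.51), Col6a1 (0.46) and Col9a2 (0.33). Col6a1, a chain of the beaded filaments of type VI collagen, measured 11.25 in LD and 11.71 in L-RUN, beside 11.77, 11.46 and 11.17 for CE, RUN and H-RUN, so that CE and L-RUN were both high. The fibroblast and collagen lists together held 22 of the 108 higher genes, and 86 were outside them.

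Markers of the other cells that lie around vessels and ventricles moved little. Of 16 endothelial markers 0 were higher and 1 was lower, Flt1, a VEGF receptor (-0.43), with a median of -0.0032. Among 11 mural cell markers 1 was higher, Vtn, a matrix protein made by pericytes (0.43), and the median was -0.0001. Only 4 of 11 choroid plexus markers reached a mean of 5, and 0 of them were called. Microglia had 0 of 15 markers called in either direction, with a median of -0.096.

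**Figure D2:**
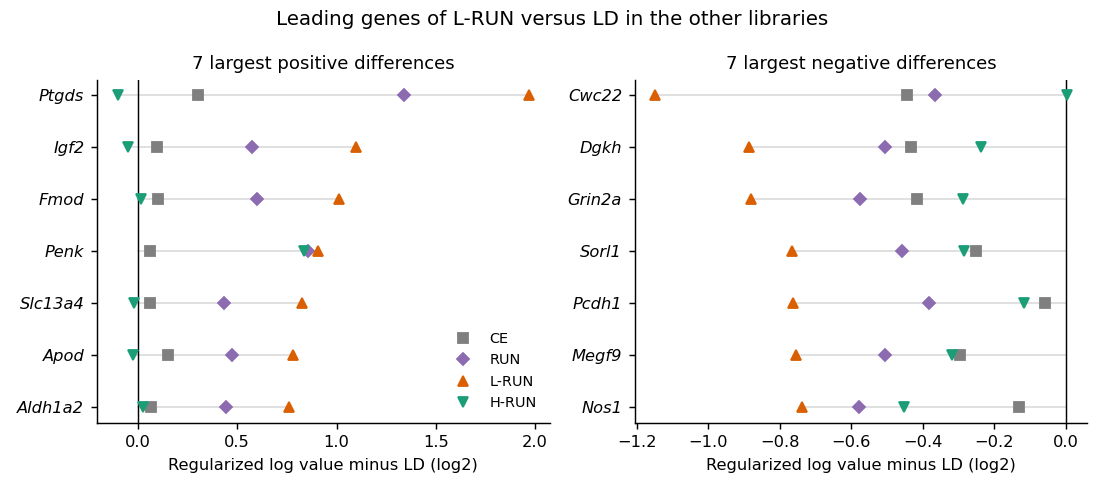
Regularized log value minus that of LD (log2) in the CE, RUN, L-RUN and H-RUN libraries for the 7 genes with the largest positive (left) and the 7 with the largest negative (right) differences between L-RUN and LD, 1 symbol per library. On the left, H-RUN lies within 0.11 of LD except for Penk, where it is 0.83 higher, and on the right RUN lies between L-RUN and LD in each gene.

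Several higher genes outside the fibroblast group were about as high in H-RUN as in L-RUN. Penk, which encodes proenkephalin, the precursor of the enkephalin opioid peptides, lies at chr4:4133531-4138819 on the minus strand. It was at 10.46 in LD and 11.37 in L-RUN, beside 10.52, 11.32 and 11.29 for CE, RUN and H-RUN, so that the 3 running libraries lay together, 0.91 (L-RUN), 0.85 (RUN) and 0.83 (H-RUN) above LD. Igfbp6, which binds IGF2 in preference to IGF1, was above LD by 0.56 (L-RUN) and 0.46 (H-RUN). Robo3, a receptor of axon guidance, was 0.52 and 0.43 above LD. Rprm, a mediator of cell cycle arrest, and Htra4, a serine protease, were singled out after their values were seen, and were 0.54 and 0.53 above LD in L-RUN, with values of 11.06 and 9.15 against 11.04 and 9.20 in H-RUN.

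The remaining opioid genes were not called, and Penk was the 1 called member among 6 measured. Pdyn, the precursor of dynorphins, differed by -0.03, Oprd1, the delta opioid receptor, by -0.20 and Oprk1, the kappa receptor, by 0.06. Among other neuropeptide genes 2 of 12 were higher, against 0.797% of all genes compared. They were Grp, gastrin-releasing peptide (0.34), and Npy, neuropeptide Y, which went from 10.12 in LD and 10.13 in CE to 10.27 in RUN and 10.44 in L-RUN, with 10.12 in H-RUN. With the trend with transcript length removed, as described further on, 0 of the 12 were higher, with Grp at 0.27 and Npy at 0.18. Sst, somatostatin, a marker of a class of interneurons, was 0.30 higher, but stood at 11.71 in CE against 11.68 in L-RUN and 11.37 in LD. It was the 1 called gene of 14 interneuron markers, whose median was -0.036.

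The insulin-like growth factor genes moved in both directions. Of 14 measured, Igf2, Igfbp6 and Igfbp2 were higher, and Igfbp5, a binding protein, and Irs2, an adaptor of the insulin and IGF1 receptors, were lower. Igfbp5 measured 12.66 in LD and 12.18 in L-RUN, beside 12.63, 12.16 and 12.11 for CE, RUN and H-RUN, with the 3 running libraries about 0.5 below the 2 others. Irs2 was 0.42 lower in L-RUN and 0.18 lower in H-RUN. Igf1 itself differed by 0.02 and the receptor Igf1r by -0.19. Among genes of the BMP pathway, which restrains division of neural stem cells, the ligand Bmp6 was higher (0.37), and the receptor Bmpr2 (-0.66) and the SMAD corepressor Skil (-0.45) were lower, out of 25 genes of the TGF-beta and BMP families. Over all genes compared 0.797% were higher and 2.33% lower, and in the longest-transcript quintile, described further on, 7.66% were lower. That quintile held 57.1% of the insulin-like growth factor genes and 36% of the TGF-beta and BMP genes. With the length trend removed, both lists kept the same numbers of higher and lower genes. Bdnf, the neurotrophin most often tied to running, differed by 0.19 and was not called.

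The lower genes were led by Cwc22, a splicing factor that deposits the exon junction complex on spliced RNA. Cwc22 (chr2:77881159-77946375, minus strand) was at 13.68 in LD and 12.54 in L-RUN, beside 13.24, 13.32 and 13.69 for CE, RUN and H-RUN. L-RUN was 1.15 below LD and was the lowest library, while LD and H-RUN differed by 0.0029. It was the 1 called gene among 18 of the exon junction complex and nonsense-mediated decay.

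Subunits of the NMDA receptor, the glutamate receptor that admits calcium during coincident activity, were also lower. Grin2a (chr16:9567898-9995560, minus strand) was at 10.30 in LD and 9.42 in L-RUN, beside 9.88, 9.72 and 10.01 for CE, RUN and H-RUN, 0.88 lower in L-RUN than in LD. Grin2b (chr6:135713233-136173511, minus strand) was at 9.04 in LD and 8.33 in L-RUN, beside 8.80, 8.602 and 8.79 for CE, RUN and H-RUN, 0.72 lower. Both had their highest value in LD and their lowest in L-RUN. Grin3a, a subunit that lowers calcium flux, was 0.32 lower in L-RUN and 0.33 lower in H-RUN, and the obligatory subunit Grin1 differed by -0.08. Thus 3 of 7 NMDA receptor genes were lower and 0 higher, with a median of -0.079. Of all genes compared 2.33% were lower, and of those in the longest-transcript quintile, described further on, 7.66%. That quintile held 42.9% of the NMDA receptor genes.

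Other receptor families had fewer called genes. Shisa6, an auxiliary subunit, was the 1 lower gene among 16 of AMPA receptors (-0.31), Grik3 among 7 of kainate receptors (-0.37) and Homer2, a scaffold, among 10 of metabotropic glutamate receptors and Homer proteins (-0.48). Of GABA-A receptor subunits, which carry fast inhibition, 0 of 11 were called. Gabbr2 (-0.33) and Kctd16 (-0.41), parts of the GABA-B receptor complex, were lower among 6, and the muscarinic receptor Chrm3 (-0.36) and the nicotinic receptor Chrna7 (-0.32) among 6 acetylcholine receptors. In total, 10 of 63 genes of these receptor families were lower, where 2.33% of all genes compared were. Of the 63, 0 were higher, and the median was -0.086. With the trend with transcript length removed, as described further on, that median was -0.042 and 6 of the 63 were lower. Grin3a (-0.22), Shisa6 (-0.21), Grik3 (-0.25) and Gabbr2 (-0.26) were then within the cut-off.

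Downstream of receptors, 7 of 27 genes of inositol phosphate, diacylglycerol and protein kinase C signaling were lower and 0 higher, with a median of -0.11. The lower share was 2.33% over all genes compared and 7.66% in the longest-transcript quintile, which held 44.4% of this list. Dgkh (chr14:78558750-78732776, minus strand), a diacylglycerol kinase, was at 10.45 in LD and 9.57 in L-RUN, beside 10.02, 9.95 and 10.22 for CE, RUN and H-RUN, 0.89 lower. Itpr1, the IP3 receptor that releases calcium from the endoplasmic reticulum, was 0.60 lower in L-RUN, 0.37 lower in CE and 0.40 lower in H-RUN. Prkcb, a protein kinase C, was 0.56 lower, Dgki 0.51, Itpkb 0.40, Prkcd 0.37 and Dgkz 0.30 lower. Prkcd stood lowest in CE, at 8.80, against 8.83 in L-RUN and 9.20 in LD.

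Channels and pumps were lower in part of their families. Of 39 potassium channel genes, 4 were lower. They were Kcnq3, a subunit of the M-current (-0.69), Kcnj6 (-0.49) and Kcnj3 (-0.45), which carry currents gated by G proteins, and Kcnma1, the large-conductance calcium-activated channel (-0.37). Of 27 calcium channel and pump genes, 6 were lower, Trpm3 (-0.65), Cacna1e (-0.51), Atp2b3 (-0.49), Slc8a1 (-0.41), Cacna1c (-0.38) and Cacna1b (-0.32). The medians of these families were -0.14 and -0.15, and 0 members of either were higher. Over all genes compared 2.33% were lower, and in the quintile with the longest transcripts, described further on, 7.66% were. That quintile held 38.5% of the potassium channel genes and 77.8% of the calcium channel and pump genes.

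Kinases and second messengers made up a further set of lower genes. Nos1, neuronal nitric oxide synthase, lies at chr5:117781032-117958840 on the plus strand and was at 9.32 in LD and 8.58 in L-RUN, beside 9.19, 8.74 and 8.87 for CE, RUN and H-RUN, 0.74 lower in L-RUN and 0.45 lower in H-RUN. Its adaptor Nos1ap was 0.37 lower. Adenylyl cyclases Adcy9 (-0.45) and Adcy1 (-0.37) and the regulatory subunit Prkar2a (-0.41) were the lower genes among 17 of cAMP signaling. Of all genes compared 2.33% were lower, and of those in the longest-transcript quintile, described further on, 7.66%. That quintile held 52.9% of the cAMP signaling genes. With the length trend removed, 2 of the 17 were lower, and Adcy1 was at -0.23. Camk2a, the abundant kinase of long-term potentiation, was at 16.50 in L-RUN against 16.81 in both LD and H-RUN, 0.31 lower.

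Other genes with large negative differences had roles in trafficking, adhesion and degradation. Sorl1, a sorting receptor for the amyloid precursor protein and for neurotrophin receptors, was at 12.11 in LD and 11.34 in L-RUN, beside 11.86, 11.65 and 11.82 for CE, RUN and H-RUN, 0.77 lower. Pcdh1, a protocadherin, was 0.76 lower, and 6 of 63 protocadherin genes were lower in all. Cbl, a ubiquitin ligase of receptor tyrosine kinases, was 0.73 lower, Ube3a, the ligase lost in Angelman syndrome, 0.36 lower, and 4 of 23 ubiquitin ligase genes were lower. Of all genes compared 2.33% were lower, and of those in the longest-transcript quintile 7.66%. This quintile held 73.9% of the ubiquitin ligase genes and 19.0% of the protocadherin genes. Lnpep, an aminopeptidase (-0.72), Glg1, a Golgi glycoprotein (-0.73), and Megf9 (-0.75) were also lower, as were D10Bwg1379e (-0.73) and 1700020I14Rik (-0.68), whose products are less known.

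Growth and guidance receptors were lower in a few members. Ntrk2, the receptor of BDNF, was at 12.72 in L-RUN against 13.04 in LD, 0.31 lower, and at 12.86 in H-RUN, and together with Sorl1 it was 1 of 2 lower genes among 10 of neurotrophin signaling. Of 60 axon guidance genes 6 were lower, among them Epha6 (-0.50), Slit3 (-0.44), Sema4d (-0.40), Slit1 (-0.34), Dcc (-0.34) and Nrcam (-0.31), and Robo3 was the 1 that was higher. The longest-transcript quintile held 70% of the neurotrophin signaling genes and 50% of the guidance genes. Of all genes in that quintile 7.66% were lower, against 2.33% of all genes compared. With the length trend removed, as described further on, 1 of the 10 neurotrophin signaling genes was lower, Sorl1 (-0.63). Tnr, a glycoprotein of perineuronal nets, was 0.66 lower in L-RUN and 0.09 lower in H-RUN, and was the 1 called gene of 11 in its list.

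Transcriptional groups also had lower members. Among 21 genes induced by neuronal activity, Nr4a3 (-0.51), Arc (-0.45), Nr4a1 (-0.35) and Egr3 (-0.33) were lower and 0 were higher, while the median was -0.026 and Fos differed by -0.15. For comparison, 2.33% of all genes were lower. Arc, which controls the trafficking of AMPA receptors, was at 10.43 in LD and 9.98 in L-RUN, beside 10.39, 10.10 and 10.28 for CE, RUN and H-RUN. Clock genes had a median of -0.22 over 18 genes, 13 of them negative, where 50.7% of all genes compared were negative. The lower ones were Nr1d2 (-0.37) and Bhlhe40 (-0.30), repressors of the clock, and Per3 (-0.28), Dbp (-0.26), Tef (-0.26) and Per2 (-0.24) were short of the cut-off. Arntl and Npas2, activators of the clock, differed by 0.15 and 0.16, but Clock, also an activator, by -0.23. The repressors Bhlhe41 (0.21), Nfil3 (0.13) and Cry1 (0.05) were positive, so activators and repressors each went both ways. Against the same LD library the clock gene median was -0.18 in RUN, -0.11 in H-RUN and -0.051 in CE. With the length trend removed, as described further on, the L-RUN median was -0.14, and 3 of the 18 genes were lower.

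The labelled tissue was checked against neuronal markers. Granule cell markers were abundant, with Prox1 at 12.01 in LD and C1ql2 at 11.69. Prox1, the factor that fixes granule cell identity, was 0.41 lower in L-RUN, and C1ql2, a synaptic organizer of mossy fibers, was 0.37 higher in L-RUN and 0.40 higher in H-RUN. Plk5, a polo-like kinase, was 0.36 higher, and the median over 12 granule cell markers was -0.12. Markers of pyramidal cells of the neighbouring CA fields were also present, and 4 of 12 were lower, where 2.33% of all genes were. These markers had a median of -0.22 in L-RUN and 0.031 in H-RUN. Their summed linear level was 10139 in LD and 8534 in L-RUN, beside 9963, 9388 and 10077 for CE, RUN and H-RUN, and 0 of the 12 were at 0. Pou3f1 was 0.42 lower, Mpped1 0.33 and Wfs1 0.33. Fibcd1 was at 10.35 in LD, 10.66 in CE and 9.90 in L-RUN, and at 9.83 in H-RUN, so it was low in both running pools. The part of CA tissue in the neuronal differences was not tested.

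Glial markers showed small differences. Slc1a2 and Slc1a3, the glutamate transporters of astrocytes, were 0.36 and 0.30 lower, and Gjb6, a connexin of astrocytes, was 0.34 higher, among 15 markers with a median of -0.052. Oligodendrocyte markers had 0 of 15 called and a median of -0.12. Of 10 markers of immature neurons 0 were higher and Dpysl3 was lower (-0.37), with a median of 0.092. Genes of cell division had 0 of 12 called and a median of -0.011.

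**Figure D3:**
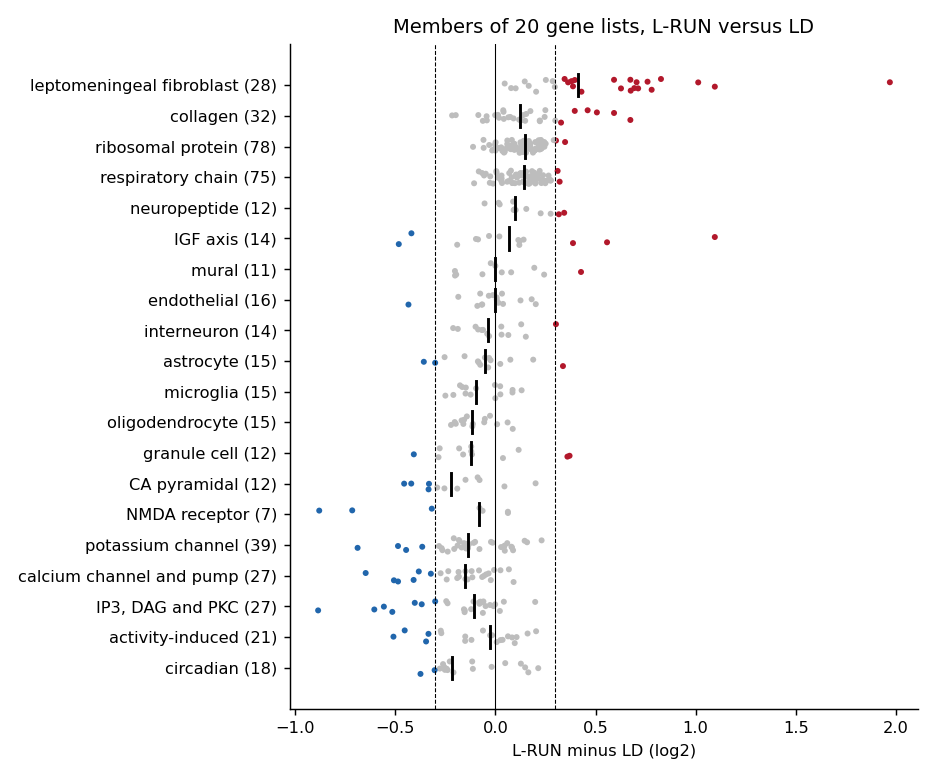
Difference between L-RUN and LD (log2) of each member of 20 gene lists with a mean of at least 5, 1 point per gene, with the number of members in parentheses, black bars at the medians and dashed lines at the cut-off of 0.3. The leptomeningeal fibroblast list has the highest median (0.41) and no point below 0. It was put together with results of these data known, so its rank is only a description. The lower (blue) members of the neuronal lists stand apart from medians between -0.22 and -0.026.

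The differences followed transcript length. The longest transcript of GENCODE vM21 was found for 99.3% of the genes compared, and its median was 2312.5 bases in higher genes, 6541 in lower genes and 3517 in all. In the quintile of genes with the shortest transcripts, 1.67% were higher and 0.26% lower. In the quintile with the longest transcripts, of 5445 bases or more, 0.334% were higher and 7.66% lower, which is 206 of the 314 lower genes with a length. The median difference went from 0.071 in the shortest quintile to -0.098 in the longest. Spearman's correlation of the difference with length over 13452 genes was -0.51, given as a description, since genes of the same pair of libraries are not independent.

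Contrasts without LD had a weaker trend of the same sign where RNA of the low runners was in them. The correlation with length was -0.30 for L-RUN minus CE, -0.34 for L-RUN minus H-RUN and -0.31 for RUN minus H-RUN, which uses neither the LD nor the L-RUN library. It was 0.0099 for H-RUN minus CE. For CE minus LD and H-RUN minus LD, which use the LD library again, it was -0.33 and -0.37. Thus L-RUN lay at one end of this trend, LD at the other and CE and H-RUN together between them. The cause of the trend was not tested.

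The families described above differ in length, and the trend touched them unequally. Of the 15 genes with the largest negative differences, 13 were in the longest quintile, against 1 of the 15 with the largest positive differences. When the trend was removed with a smooth curve, 103 genes were higher and 190 lower, and of the genes first called with a known length 75 of 106 higher and 180 of 314 lower ones were still called. Grin2a then differed by -0.72, Grin2b by -0.53, Dgkh by -0.72, Nos1 by -0.61 and Cwc22 by -1.15. Other families lost calls, with lower genes going from 6 to 3 among calcium channels and pumps, axon guidance genes and protocadherins alike and from 4 to 2 among ubiquitin ligases. Calcium/calmodulin kinase genes went from 2 lower genes to 0, and astrocyte markers from 2 lower and 1 higher to 0, with Slc1a2 at -0.21 and Slc1a3 at -0.27. The 4 lower potassium channel genes stayed at 4, and the 7 of inositol phosphate and protein kinase C signaling became 6. For Ptgds the value was 1.89, and the fibroblast markers had a median of 0.44, with 21 of 28 called higher. Ribosomal proteins, with a median length of 1107.5 bases, had a median difference of 0.15 before and 0.059 after, and 71 of 78 were positive, with Rpl36 (0.35) and Rpl37 (0.30) called before and 0 after. Respiratory chain genes, with 2 of 75 higher, Cox7b (0.32) and Cox5b (0.31), had a median of 0.14 before and 0.062 after. Chromatin and transcription regulators, of which 93.3% were in the longest quintile, had a median of -0.15 before and -0.0050 after, with Mef2d (-0.44) and Mef2a (-0.43) lower.

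**Figure D4:**
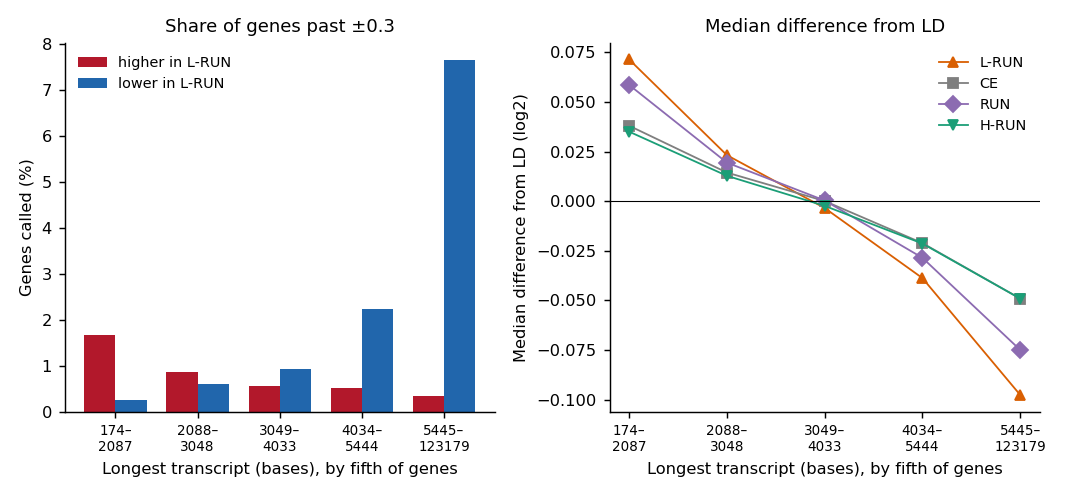
Left, percent of genes called higher (red) or lower (blue) in L-RUN by quintile of longest-transcript length in bases. Right, median difference from LD (log2) in the same quintiles for L-RUN, CE, RUN and H-RUN, which share the LD library. The share of lower genes goes from 0.26% in the shortest quintile to 7.66% in the longest, and the L-RUN median from 0.071 to -0.098.

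The RUN library gave a reading of the low runners that did not use the L-RUN library. As RUN held the RNA of the low and high runners in equal amounts, L-RUN can be computed as 2 times RUN minus H-RUN on the linear scale. Against LD, which this reading shares with the measured difference, it had a median of 0.33 for the higher genes, where the measured median was 0.36, and -0.38 for the lower genes, where it was -0.39. By this reading 77 of the 108 higher genes and 254 of the 316 lower genes were past the cut-off in the same direction. The sign was the same in 105 of the higher and 316 of the lower genes. Ptgds read 2.04, Igf2 1.01, Fmod 1.01, Penk 0.87, Grin2a -0.93, Dgkh -0.84 and Cwc22 -0.87. Genes that read otherwise were Rn45s, the ribosomal RNA precursor (0.40 measured and -0.12 computed), 4933409K07Rik (0.39 and -0.19), Gm12070 (0.32 and -0.16) and Lars2, a mitochondrial leucyl-tRNA synthetase (0.48 and 0.08). These 4 were singled out after their values were seen, and their RUN values were below those of both L-RUN and H-RUN, which a mixture cannot give.

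A contrast that shares no library with L-RUN minus LD is RUN minus H-RUN, although RUN holds RNA of the low runners. It was positive in 88 of the 108 higher genes (81.5%), with a median of 0.098, where 48.5% of all genes compared were positive. It was negative in 305 of the 316 lower genes (96.5%), with a median of -0.11, where 51.5% of all genes were negative. This contrast has the length trend too, so the shares were also taken within the longest quintile, a choice made after the data were seen. There 200 of 206 lower genes (97.1%) were negative, where 69.5% of all genes of that length were. In the shortest quintile 37 of 45 higher genes (82.2%) were positive, against 66.8% of all. Ptgds differed by 1.44, Igf2 by 0.62, Fmod by 0.59 and Slc13a4 by 0.45 in this contrast, and Penk by 0.02. Grin2a and Dgkh were at -0.29 and -0.27, and Cwc22 at -0.37. RUN minus CE, another contrast without L-RUN or LD, was positive in 80.6% of the higher genes and negative in 89.2% of the lower genes, against 49.6% and 50.4% of all genes.

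**Figure D5:**
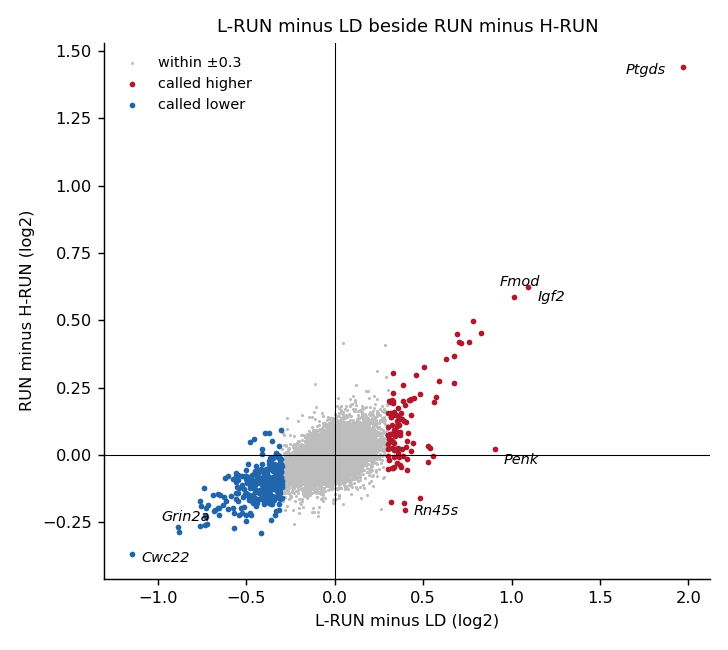
RUN minus H-RUN against L-RUN minus LD (both log2) for the 13550 genes, 1 point per gene, with called genes in color. These contrasts share no library, but RUN holds RNA of the same low runners as L-RUN. On the vertical axis 88 of the 108 higher genes lie above 0 and 305 of the 316 lower genes below 0. Penk lies near 0 (0.02) and Rn45s below it.

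Against the LD library, the median of the 108 higher genes was 0.36 in L-RUN, 0.25 in RUN, 0.13 in H-RUN and 0.11 in CE. That of the 316 lower genes was -0.39 in L-RUN, -0.26 in RUN, -0.15 in H-RUN and -0.15 in CE. These comparisons share the LD library, and the genes were chosen by their value in L-RUN, so L-RUN is the most extreme by choice. No difference between L-RUN and H-RUN was tested, for the same lack of replicate libraries.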

How the data were processed

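RNA of the DG was sequenced in 5 libraries, 1 per group. Per the labels and the methods of the study, the authors prepared TruSeq libraries, mapped reads to mm10 with TopHat2 (version 2.0.10), obtained counts per RefSeq gene from HTSeq and normalized all libraries at once with DESeq2 (version 1.10.1). The values that the authors deposited are regularized log values on the log2 scale, and no reads or depths were used here. Because these are not counts and each group has 1 library, no test was run. Differences were taken from LD, with a minimum mean of 5 and the study's cut-off of 0.3. The comparison and its 52 gene lists were chosen with earlier results of these data known. Genes named are the 15 largest differences in each direction, called members and up to 6 of the largest of each list, and 3 genes on each side of the cut-off, with exceptions stated and 1 gene not reported here. Technical SD came from the median absolute deviation of RUN against the computed mixture, with its variance taken as 1.5 times that of a library. The length trend was a lowess curve (fraction 0.3). Symbols were matched to GENCODE vM21 (687 through RefSeq synonyms). Alternatives were other cut-offs and minimum means, centring, quantile normalization, a baseline of LD and CE, length adjustment and the second reading. The calculations were tested on simulated data and used python 3.11.15, pandas 2.3.3, scipy 1.17.1 and statsmodels 0.14.6.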

Additional observations from a re-analysis of the deposited data

Results flagged for a closer look

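In 4 named genes, L-RUN and H-RUN lay on opposite sides of LD, each by at least 3 technical SD. The difference between the runner groups was not tested, as each has 1 library. Ptgds was 1.97 higher than LD in L-RUN and at -0.1032 in H-RUN. Col6a1 was 0.46 higher in L-RUN and at -0.0847 in H-RUN. Wfs1, a marker of CA1 pyramidal cells, was 0.33 lower in L-RUN (-0.3338) and at 0.1777 in H-RUN. Pcdhgc5, a gamma protocadherin, was at -0.314 in L-RUN and at 0.1326 in H-RUN.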

How the results depend on the processing

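The counts of 108 higher and 316 lower genes moved with the cut-off, to 37 and 147 at 0.4 and to 438 and 908 at 0.2. Against LD and CE averaged they were 64 and 209. Taking out the length trend gave 190 lower genes, and 103 higher ones. The other alternatives, centring, quantile normalization, a minimum mean of 7 or none and the second reading, gave 97 to 124 higher and 275 to 339 lower genes. Those of the second reading were partly other genes, and held 77 of the 108 higher and 254 of the 316 lower ones. Of 130 named genes past the cut-off, 91 were still past it with LD and CE as baseline, 93 with the length trend removed, 108 by the second reading, 112 after quantile normalization and 127 after centring. Under these 5 alternatives 0 of the 130 changed sign. Little follows from that 0, since centring moved each gene only by the median of -0.0018 and the averaged baseline still holds LD. Among higher genes outside the 130, Rn45s, 4933409K07Rik and Gm12070 turned negative by the second reading, at -0.12, -0.19 and -0.16. No paired analysis was possible because each group has 1 library, and for the same reason no replicate could be left out. LD enters each difference, so an error of that library would move them together. The spread between mice, and the precision that read depth would give, cannot be stated.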
